A study of Potamopyrgus antipodarum with 6 samples.

Results

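The genes atp5a1 and DDOST were followed across every 100 bp window of the contigs that carry them, in the foot tissue DNA of the snail Potamopyrgus antipodarum. River 1 was represented by 3 pools of snails from the Snake River (main channel) and Lake 2 by 3 pools from Lake Washington, with 10 snails in each pool. The snails are asexual and carried no experimental treatment, so each group is the wild population of a single site. Water current, geography and lineage therefore cannot be told apart in this comparison. Methylated DNA was enriched with an antibody against 5-methylcytosine and sequenced (MeDIP-seq), and reads were counted in 100 bp windows along a joined transcriptome, in which assembled transcripts follow each other in a single sequence. The River 1 pools are called 7, 8 and 9 and the Lake 2 pools 4, 5 and 6, as the deposited count table numbers them. The sample titles number the River 1 pools 8, 9 and 10, so the site of a River 1 pool is certain but its number is not.

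The members were taken from the study's annotation, which named regions by sequence searches against other species. The span annotated as atp5a1 runs from position 242101 to 243200 of the joined sequence on contig 00103 and covers 11 windows, and the same span also matched a sequence named LOC103362722. The span annotated as DDOST runs from 1132701 to 1133700 on contig 00508 and covers 10 windows. Each contig was then followed in both directions to the first run of 9 windows without a read in any pool. This gave 16 windows for atp5a1, from 241901 to 243500, and 20 windows for DDOST, from 1131901 to 1133900. Together they are 36 of the 739509 windows of the joined sequence. The contigs derive from transcripts, so their windows lie in expressed sequence, but coding parts and untranslated regions were not resolved here. Contig ends were set by reads on a fixed grid of windows. The first and last windows can therefore lie partly beyond the transcript, and this was not tested.

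The gene atp5a1 encodes the alpha subunit of the mitochondrial ATP synthase, part of the catalytic head that makes ATP from the proton gradient of the respiratory chain. DDOST encodes a subunit of the oligosaccharyltransferase, the enzyme of the endoplasmic reticulum that attaches N-linked glycans to newly made secretory and membrane proteins. Both are housekeeping genes, used in nearly every animal cell. In molluscs, DNA methylation lies mostly on CpG sites within the bodies of genes, and broadly expressed genes are typically among the methylated ones. MeDIP counts follow both the methylation of a window and the number of CpG sites in it, so they compare pools within a window more directly than they compare windows.

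Window counts summed to between 3317802 and 4398017 in the River 1 pools and to between 3838302 and 4994212 in the Lake 2 pools. No window of the whole table exceeded 300 counts in any pool. The highest count of a single pool was 37 on the atp5a1 contig and 60 on the DDOST contig, so neither reached that limit. Values are given below as raw counts and as CPM, which are counts scaled to a library size of 1000000 after adjusting the library sizes by the trimmed mean of M-values method (TMM).

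Both contigs carried clear MeDIP signal at both sites. The atp5a1 contig had an average of 12.6 counts per window and pool, more than 74.0% of all 42150 contigs, and the DDOST contig had 13.1, more than 74.9% of them. These 42150 contigs were delimited in the same way, as stretches with reads between runs of 9 or more windows without a read. Transcripts without any read are left out, and a transcript with a long gap in its reads is split. Contigs with too few reads to be tested are included. The strongest window of the atp5a1 span had a higher mean CPM than 95.0% of all windows of the series, and that of the DDOST span was higher than 95.6%. The single weakest window ranked above 79.0% of all windows on the atp5a1 contig and above 71.5% on the DDOST contig, since most windows of the joined sequence held no read. Among the 221751 windows with a read, the strongest span windows ranked above 83.4% for atp5a1 and 85.4% for DDOST, and the weakest windows of the contigs above 30.0% for atp5a1 and 4.95% for DDOST, where the weakest held 1 read in all. Both contigs were also long among these stretches with reads, with more windows than 96.0% of all 42150 for atp5a1 and 98.0% for DDOST.

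**Figure D1:**
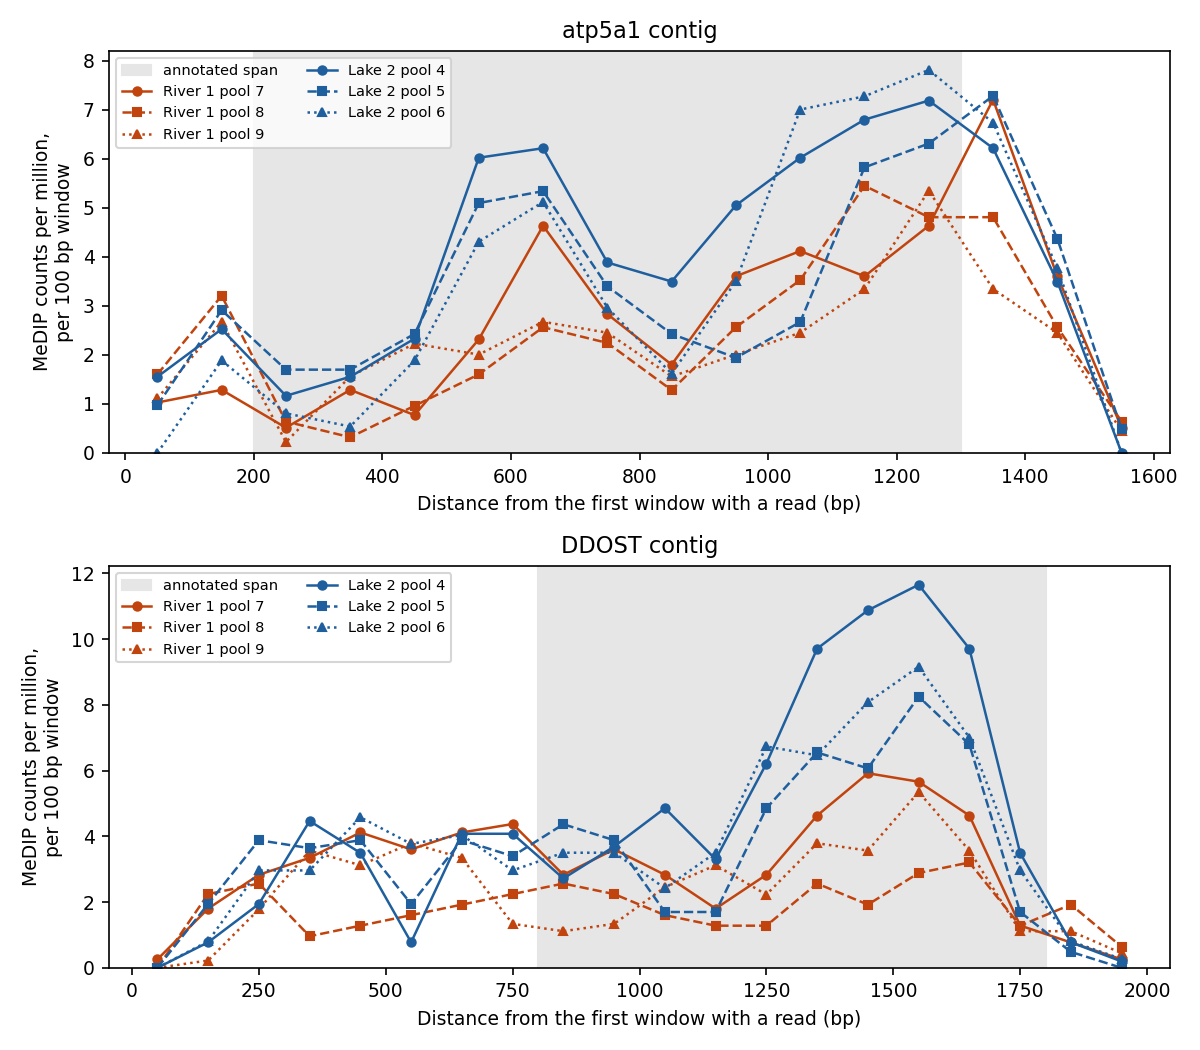
MeDIP signal in CPM in each 100 bp window (vertical axis) against the distance in bp from the first window of the contig with a read (horizontal axis), with one line per pool, River 1 in red and Lake 2 in blue, and the annotated span in grey. The River 1 lines run below the Lake 2 lines over the late peak of the DDOST span, which reaches 4.63 CPM on average in River 1 and 9.69 CPM in Lake 2, whereas the sites overlap ahead of that span.

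Along the atp5a1 contig the signal had a low rise ahead of the span, at 242001 to 242100, and a pair of higher humps with a dip between them. The early hump lay at 242401 to 242600 and the late one rose toward 243101 to 243300. In every pool, the window 243201 to 243300, which lies just outside the span, had the highest count outside it. This window held 28, 15 and 15 counts in the River 1 pools and 32, 30 and 25 counts in the Lake 2 pools. Its log2 fold change (River 1 minus Lake 2) was −0.41 (SE 0.25). This difference did not pass the test (adjusted p = 0.474, edgeR quasi-likelihood test with Benjamini-Hochberg adjustment over 151608 windows). Inside the span the window 243101 to 243200 held the most reads, with 18, 15 and 24 counts in River 1 and 37, 26 and 29 counts in Lake 2. All 3 River 1 pools had fewer counts there than any Lake 2 pool, and its mean was 4.93 ± 0.374 CPM in River 1 and 7.10 ± 0.754 CPM in Lake 2 (SD, n = 3 each). The log2 fold change of this window was −0.51 (SE 0.23) and did not pass the test across all windows (adjusted p = 0.291, edgeR).

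The one atp5a1 window that passed the test was 242401 to 242500, in the early hump. It held 9, 5 and 9 counts in the River 1 pools and 31, 21 and 16 counts in the Lake 2 pools. The highest River 1 count was thus below the lowest Lake 2 count, and the mean was 1.97 ± 0.358 CPM in River 1 and 5.14 ± 0.856 CPM in Lake 2 (SD, n = 3 each). The log2 fold change was −1.37 (SE 0.32, adjusted p = 0.0162, edgeR), and it ranked 691 among all tested windows by p-value. The adjacent window 242501 to 242600, which shares reads with it, had 18, 8 and 12 counts in River 1 and 32, 22 and 19 counts in Lake 2, with a log2 fold change of −0.76 (adjusted p = 0.169, edgeR). A steeper fitted change of −1.44 at 242101 to 242200 rested on 2, 2 and 1 counts in River 1 and 6, 7 and 3 counts in Lake 2 and did not pass either (SE 0.69, adjusted p = 0.325, edgeR).

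Of the 15 tested windows of the atp5a1 contig, 1 was therefore called lower in River 1 and 0 were called higher. Across all tested windows, 1.11% were called lower and 0.305% higher at an adjusted p under 0.05, or 1.42% in either direction. An unadjusted p under 0.05 was reached by 6 windows of the contig, all lower in River 1 and all inside the span, while 9.01% of all tested windows were lower at that unadjusted p. The log2 fold change was below 0 in 14 of the 15 windows, against 50.4% of all tested windows, and its median was −0.67 over the 11 windows inside the span and −0.24 over the 4 tested windows outside. In 6 windows, all of them inside the span, every River 1 pool was below every Lake 2 pool, which held for 10.9% of all tested windows, and in 0 windows was every River 1 pool above, which held for 7.74%. The study called the span from these same pools, so these counts describe its extent and give no independent evidence of its direction. The call at 242401 to 242500 was lost without pool 4 (adjusted p = 0.137), pool 8 (0.0638) or pool 9 (0.0809) in edgeR and in the Wald test of DESeq2 (0.592).

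The DDOST contig had a different profile. The windows ahead of the span formed a low plateau, and the signal climbed to a single peak between 1133101 and 1133600, close to the far end of the contig. Ahead of the span no window passed the test in either direction. The window with the most counts there, 1132501 to 1132600, held 16, 6 and 15 counts in River 1 and 21, 16 and 15 counts in Lake 2. The sites overlapped, with a log2 fold change of −0.31 (SE 0.31, adjusted p = 0.691, edgeR). At 1132401 to 1132500 the counts ran the other way, with 14, 5 and 17 in River 1 and 4, 8 and 14 in Lake 2, and this difference did not pass the test either (log2 fold change 0.63, adjusted p = 0.497, edgeR).

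The peak was lower in River 1 over 5 consecutive windows, from 1133101 to 1133600, and each of the 5 passed the test. The first of them, 1133101 to 1133200, had the smallest p-value of the contig and ranked 357 among all tested windows. It held 11, 4 and 10 counts in River 1 and 32, 20 and 25 counts in Lake 2, which amounts to 2.11 ± 0.781 CPM in River 1 and 5.93 ± 0.971 CPM in Lake 2 (SD, n = 3 each), and its log2 fold change was −1.44 (SE 0.31, adjusted p = 0.00951, edgeR). The window 1133201 to 1133300 held 18, 8 and 17 counts in River 1 and 50, 27 and 24 counts in Lake 2 (log2 fold change −1.05, SE 0.26, adjusted p = 0.0236, edgeR). In both of these windows every River 1 pool was below every Lake 2 pool.

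At the summit of the DDOST peak the separation of the sites was the same. The window 1133301 to 1133400 held 23, 6 and 16 counts in River 1 and 56, 25 and 30 counts in Lake 2 (log2 fold change −1.12, SE 0.27, adjusted p = 0.0194, edgeR). The window 1133401 to 1133500 held the most reads of either contig, with 22, 9 and 24 counts in River 1 and 60, 34 and 34 counts in Lake 2. Its mean was 4.63 ± 1.52 CPM in River 1 and 9.69 ± 1.76 CPM in Lake 2 (SD, n = 3 each), with a log2 fold change of −1.04 (SE 0.23, adjusted p = 0.012, edgeR). The last called window, 1133501 to 1133600, held 18, 10 and 16 counts in River 1 and 50, 28 and 26 counts in Lake 2 (log2 fold change −1.06, SE 0.25, adjusted p = 0.0181, edgeR). After scaling, pool 4 of Lake 2 had the highest CPM in 6 of the 10 windows of the span and pool 8 of River 1 the lowest in 7. Beyond the peak the signal fell away at once at both sites. The last window of the span, 1133601 to 1133700, held 5, 4 and 5 counts in River 1 and 18, 7 and 11 counts in Lake 2 (log2 fold change −1.16, adjusted p = 0.169, edgeR), and the next one held 3, 6 and 5 counts in River 1 and 4, 2 and 3 counts in Lake 2 (log2 fold change 0.79, adjusted p = 0.594, edgeR).

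**Figure D2:**
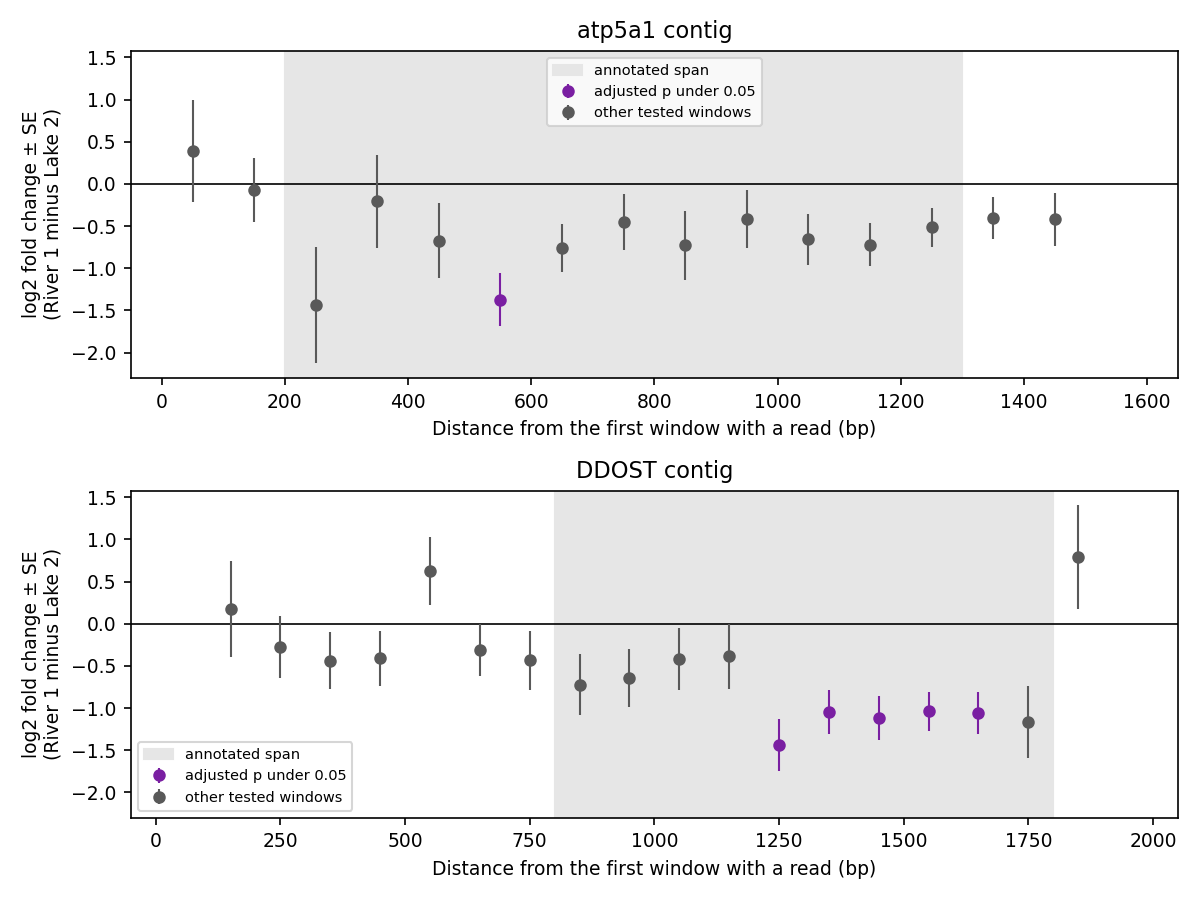
Log2 fold change of each tested window, River 1 minus Lake 2, with its standard error (vertical axis) against the distance in bp from the first window of the contig with a read (horizontal axis). Purple points have an adjusted p under 0.05 in the edgeR test across all windows, 1 on the atp5a1 contig and 5 in a row on the DDOST contig, and the annotated span is in grey.

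Of the 18 tested windows of the DDOST contig, 5 were called lower in River 1 and 0 higher, beside the 1.11% and 0.305% of all tested windows given above. The log2 fold change was below 0 in all 10 windows inside the span, with a median of −1.04, and in 5 of the 8 tested windows outside, with a median of −0.30. As on the atp5a1 contig, 6 windows had an unadjusted p under 0.05, all lower in River 1 and inside the span, beside the 9.01% of all tested windows. Every River 1 pool was below every Lake 2 pool in 6 windows, all inside the span, which held for 10.9% of all tested windows. Neighbouring windows share reads, so the 5 calls are not 5 separate measurements, and here too the study had drawn the span on the same pools. No window of either contig reached an unadjusted p of 1e-05 in the edgeR test, which 0.147% of all tested windows did. This is the cutoff that the study set for its differential regions in its own edgeR test. Its gene annotation also lists regions at a looser cutoff, so a region named there need not reach 1e-05. The number of called DDOST windows was 0 without pool 4, 6 or 8, 2 without pool 9, and 0 in the Wald test of DESeq2, which called 10 windows in the whole table. With limma-voom it was 4, since the window 1133201 to 1133300 was lost (adjusted p = 0.0559).

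Summed over the span, both genes were lower in every River 1 pool than in any Lake 2 pool. The atp5a1 span had 30.1, 26.0 and 25.9 CPM in the River 1 pools and 49.7, 38.8 and 42.8 CPM in the Lake 2 pools. The means were 27.3 ± 2.43 CPM in River 1 and 43.8 ± 5.51 CPM in Lake 2, a log2 ratio of −0.68 (SE 0.13, n = 3 each). The DDOST span had 36.0, 20.8 and 27.6 CPM in the River 1 pools and 66.2, 45.9 and 53.3 CPM in the Lake 2 pools. Its means were 28.2 ± 7.61 CPM in River 1 and 55.1 ± 10.3 CPM in Lake 2, a log2 ratio of −0.99 (SE 0.28, n = 3 each). For both genes pool 7 was the River 1 pool nearest to Lake 2 and pool 5 the Lake 2 pool nearest to River 1. The exact two-sided permutation test gave p = 0.1 for both spans, the smallest value that 3 pools against 3 allow. Since the study called both spans on these pools, the separation is a description and gives no independent evidence of a difference.

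Outside the spans the sites overlapped for both genes. The study drew these borders on the same pools, extending each region over nearby windows with low edgeR p-values. A weaker difference outside therefore follows in part from the borders, and the values below are a description. The rest of the atp5a1 contig averaged 12.2 ± 1.89 CPM in River 1 and 14.1 ± 1.83 CPM in Lake 2 (SD, n = 3 each), a log2 ratio of −0.21 (SE 0.17, exact permutation p = 0.4). The rest of the DDOST contig averaged 19.9 ± 5.14 CPM in River 1 and 22.3 ± 1.46 CPM in Lake 2, a log2 ratio of −0.19 (SE 0.22, exact permutation p = 0.6). The larger spread of DDOST in River 1 came from pool 8, which was lowest, and pool 7, which was highest of all 6 pools. With a pool left out these log2 ratios ran from −0.30 (without pool 6) to −0.08 (without pool 9) for atp5a1 and from −0.36 (without pool 7) to −0.02 (without pool 8) for DDOST. Without pool 7 the sites no longer overlapped outside the DDOST span (exact permutation p = 0.1, the smallest possible). Per window, the atp5a1 span averaged 2.48 CPM in River 1 and 3.98 CPM in Lake 2, and the rest of its contig 2.43 CPM in River 1 and 2.81 CPM in Lake 2. The DDOST span averaged 2.82 CPM per window in River 1 and 5.51 CPM in Lake 2, and the rest of its contig 1.99 CPM in River 1 and 2.23 CPM in Lake 2. The signal per window was thus nearly the same inside and outside the atp5a1 span in River 1, and higher inside than outside in the other 3 cases.

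**Figure D3:**
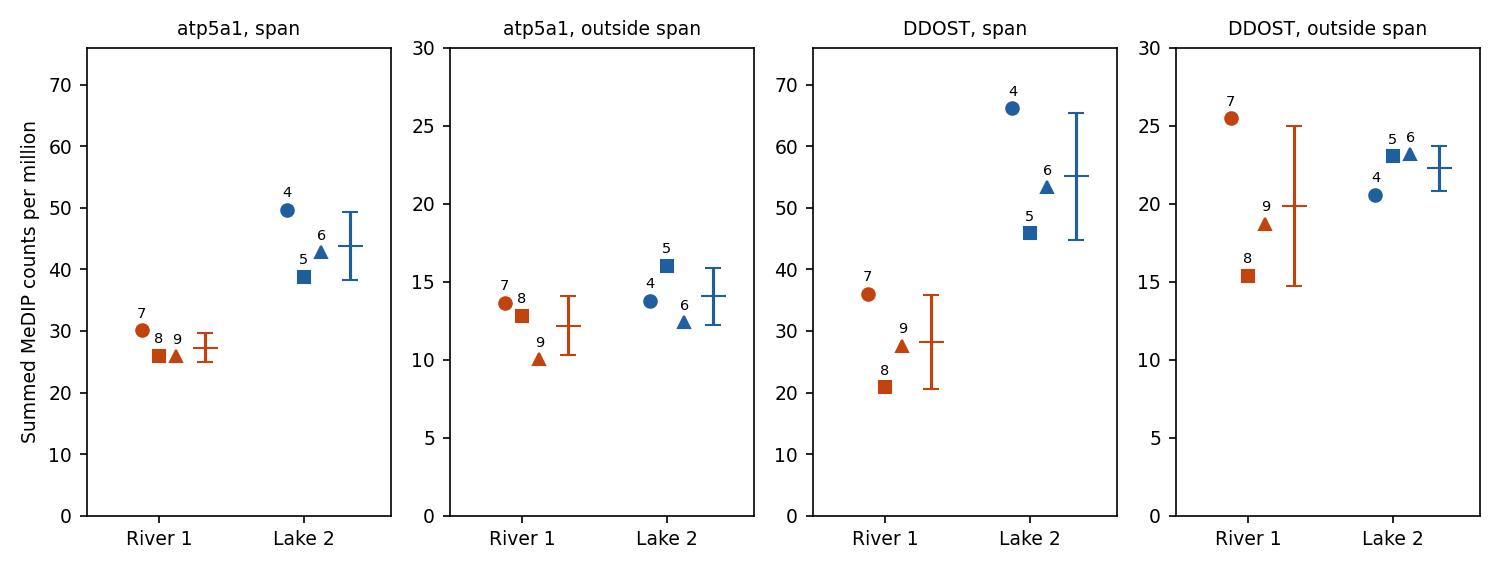
Summed MeDIP signal in CPM of each pool inside and outside the annotated span of atp5a1 and DDOST, with River 1 left of Lake 2 in each panel, pool numbers beside the points, and the mean with its standard deviation as a bar beside each group. The panels for the spans share an axis up to 76 CPM and the others an axis up to 30 CPM. The groups are apart in both spans, with means of 28.2 CPM in River 1 and 55.1 CPM in Lake 2 for DDOST, and overlap outside them. The study drew the spans on these same pools, so this contrast is in part built in.

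A ratio within a contig does not depend on how the pools are scaled to each other. The DDOST span held 58.6%, 57.5% and 59.6% of the counts of its contig in the River 1 pools and 76.3%, 66.5% and 69.7% in the Lake 2 pools. Its share was thus lower in all 3 River 1 pools, by 12.3 percentage points on average (exact permutation p = 0.1, the smallest possible with n = 3 each). The study drew both spans around windows that differed between these same pools. A lower share in River 1 is therefore in part built in, and the shares are a description. The atp5a1 span held 68.8%, 66.9% and 72.0% of the counts of its contig in the River 1 pools and 78.3%, 70.8% and 77.6% in the Lake 2 pools. Here the sites overlapped, with a mean difference of −6.28 percentage points (exact permutation p = 0.2, n = 3 each). The shape of the profiles was otherwise alike, with a Pearson r between the mean profiles of River 1 and Lake 2 of 0.93 over the 16 windows of atp5a1 and 0.88 over the 20 windows of DDOST. Adjacent windows share reads, so these coefficients are descriptions.

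The study also named both genes in its comparison of River 2 with Lake 1, whose pools were not analysed here, and drew their borders differently on those pools. Those borders were set without the 6 pools used here, although the genes reached the list of members with results of these pools known. Within the borders from the other pools, 242501 to 243300, the atp5a1 contig averaged 27.6 ± 4.63 CPM in River 1 and 40.7 ± 4.97 CPM in Lake 2 (SD, n = 3 each). The log2 ratio was −0.57 (SE 0.17) and the groups did not overlap (exact permutation p = 0.1). These borders leave out the called window at 242401 and take in the window at 243201, and the share of the contig within them differed between the sites by −0.65 percentage points (exact permutation p = 0.9, n = 3 each). Outside them the log2 ratio was −0.51 (exact permutation p = 0.1). The borders of DDOST from the other pools, 1132601 to 1133700, add 1 window to the span. Within them the mean was 30.8 ± 8.81 CPM in River 1 and 58.6 ± 10.7 CPM in Lake 2, a log2 ratio of −0.95 (SE 0.28, exact permutation p = 0.1, n = 3 each).

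Whole contigs were compared without the borders of any span, by summing the counts of each of 36661 contigs and fitting edgeR across all of them. The atp5a1 contig had 170, 121 and 161 counts in the River 1 pools and 327, 226 and 205 counts in the Lake 2 pools. Its log2 fold change was −0.56 (SE 0.14, adjusted p = 0.0463, edgeR), and it ranked 472 by p-value. The DDOST contig had 239, 113 and 208 counts in the River 1 pools and 447, 284 and 284 counts in the Lake 2 pools. Its log2 fold change was −0.69 (SE 0.16, adjusted p = 0.0309, edgeR), and it ranked 238. Both contigs were thus lower in River 1, as were 1.14% of all tested contigs at an adjusted p under 0.05, while 0.286% were higher. A log2 fold change below 0 was found for 46.9% of all tested contigs, and 2.95% held at least 1 window called lower in River 1. The sum includes the span, so it is not independent of the study's own call. The call for atp5a1 was kept only when pool 7 was the pool left out (adjusted p = 0.0232, against 0.0646 to 0.196 without each other pool), and that for DDOST only when pool 5 or 7 was left out (0.022 and 0.00426, against 0.0981 to 0.116). With DESeq2 size factors the adjusted p for atp5a1 was 0.0544, and with scaling by total count it was 0.0619 for atp5a1 and 0.0596 for DDOST.

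The spans of both genes were then compared with each other within each pool. The log2 ratio of DDOST to atp5a1 span counts was 0.26, −0.32 and 0.10 in the River 1 pools and 0.41, 0.24 and 0.32 in the Lake 2 pools. The mean ratio was 0.01 ± 0.30 in River 1 and 0.32 ± 0.09 in Lake 2 (SD, n = 3 each). The difference of −0.31 did not stand apart from the spread between pools (exact permutation p = 0.2). The ratio varied most among the River 1 pools, where pool 8 had fewer counts in DDOST than in atp5a1.

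Other regions named in the annotation were ranked by how closely their summed signal followed each gene over the 6 pools, on the log2(CPM + 1) scale. For atp5a1 the closest of 287 regions were those of rps6 (Pearson r = 0.994), a protein of the small ribosomal subunit whose span also matched unnamed loci, of TEKT4 (0.993), a tektin of ciliary microtubules, and of RPS3 (0.991), another protein of the small ribosomal subunit. The rps6 region had 14.7, 12.5 and 12.3 CPM in River 1 and 32.6, 24.7 and 28.3 CPM in Lake 2, the same order of pools within each site as in the atp5a1 span. For DDOST the closest were 3 regions known only by locus names, LOC101853885 (0.993), LOC100631697 with LOC100633223 (0.991) and LOC105392625 (0.991). DDOST itself ranked 20 for atp5a1 and atp5a1 ranked 47 for DDOST, with r = 0.965. The median r over all 287 regions was 0.862 for atp5a1 and 0.882 for DDOST. High values were common, since 117 regions for atp5a1 and 122 for DDOST had r above 0.9. Every region in the annotation was chosen for a difference between lake and river pools, either these pools or the other ones. These coefficients are given without a test.

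Genes with related roles were described by lists of regions from the same annotation. The energy list had 12 regions of 11 genes of the respiratory chain, proton pumps and carbon metabolism. All 12 had a lower mean in River 1 and 0 a higher one, with log2 ratios on the log2(CPM + 1) scale between −0.90 and −0.20 and a median of −0.68. On whole contigs 1 of the 12 passed the test, beside the 1.14% of all tested contigs called lower, and this was cyc1.L, the cytochrome c1 of respiratory complex III, whose region averaged 56.6 ± 7.29 CPM in River 1 and 86.8 ± 6.22 CPM in Lake 2 (contig log2 fold change −0.52, adjusted p = 0.0415, edgeR). The proton pump subunit vha-13 averaged 23.1 ± 6.69 CPM in River 1 and 38.0 ± 1.50 CPM in Lake 2 (SD, n = 3 each), and its contig did not pass (−0.63, adjusted p = 0.0791, edgeR). IDH3B, a subunit of isocitrate dehydrogenase, averaged 8.08 ± 1.27 CPM in River 1 and 15.5 ± 1.51 CPM in Lake 2 (contig −0.72, adjusted p = 0.0635, edgeR). The smallest difference was that of Aldh2, the mitochondrial aldehyde dehydrogenase, with 24.1 ± 6.67 CPM in River 1 and 27.3 ± 1.46 CPM in Lake 2. The remaining genes of the list, mdh1, sucIgl1, pdhb, pgk1, GAPDH, Pepck and atp6v0d1, had contig log2 fold changes between −0.69 and −0.43, and none passed the test. At least 1 window called lower lay on the contigs of 7 of the 12 regions, beside 2.95% of all tested contigs, and 0 of the 12 had a window called higher. These were 7 of the 9 regions that the study called on these pools and 0 of the 3 called on other pools only. The closer comparison, with the other regions called on these pools, is given below.

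The secretory list had 11 regions of genes that work in or at the endoplasmic reticulum, as DDOST does, or in traffic to or from it. In 10 of them the mean was lower in River 1, with a median log2 ratio of −0.61 over the list, and 2 contigs passed the test, both lower, beside the 1.14% of all tested contigs. PIGU, a subunit of the enzyme that attaches glycolipid anchors to proteins, averaged 30.5 ± 9.41 CPM in River 1 and 63.3 ± 4.97 CPM in Lake 2 (contig log2 fold change −1.05, adjusted p = 0.00526, edgeR), and 7 of its windows were called. The chaperone hspa5 averaged 46.3 ± 10.2 CPM in River 1 and 76.8 ± 12.5 CPM in Lake 2 (contig −0.72, adjusted p = 0.0217, edgeR). The exception in direction was ssr1a, a subunit of the translocon-associated complex, with 91.9 ± 1.18 CPM in River 1 and 72.5 ± 6.40 CPM in Lake 2, and its contig did not pass (0.09, adjusted p = 0.734, edgeR). PRKCSH, a subunit of the glucosidase that trims N-glycans after DDOST's enzyme has attached them, averaged 4.06 ± 1.84 CPM in River 1 and 6.45 ± 0.710 CPM in Lake 2 (contig −0.81, adjusted p = 0.113, edgeR). The other contigs, those of copa, VCP, emc4, copb1, rtn4, sec61g and COL4A3BP, had log2 fold changes between −0.73 and −0.28, and none passed. Windows called lower lay on the contigs of 7 of the 11 regions, beside 2.95% of all tested contigs, and windows called higher on 0. The 7 were among the 8 regions that the study called on these pools, against 0 of the 3 called on other pools only.

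**Figure D4:**
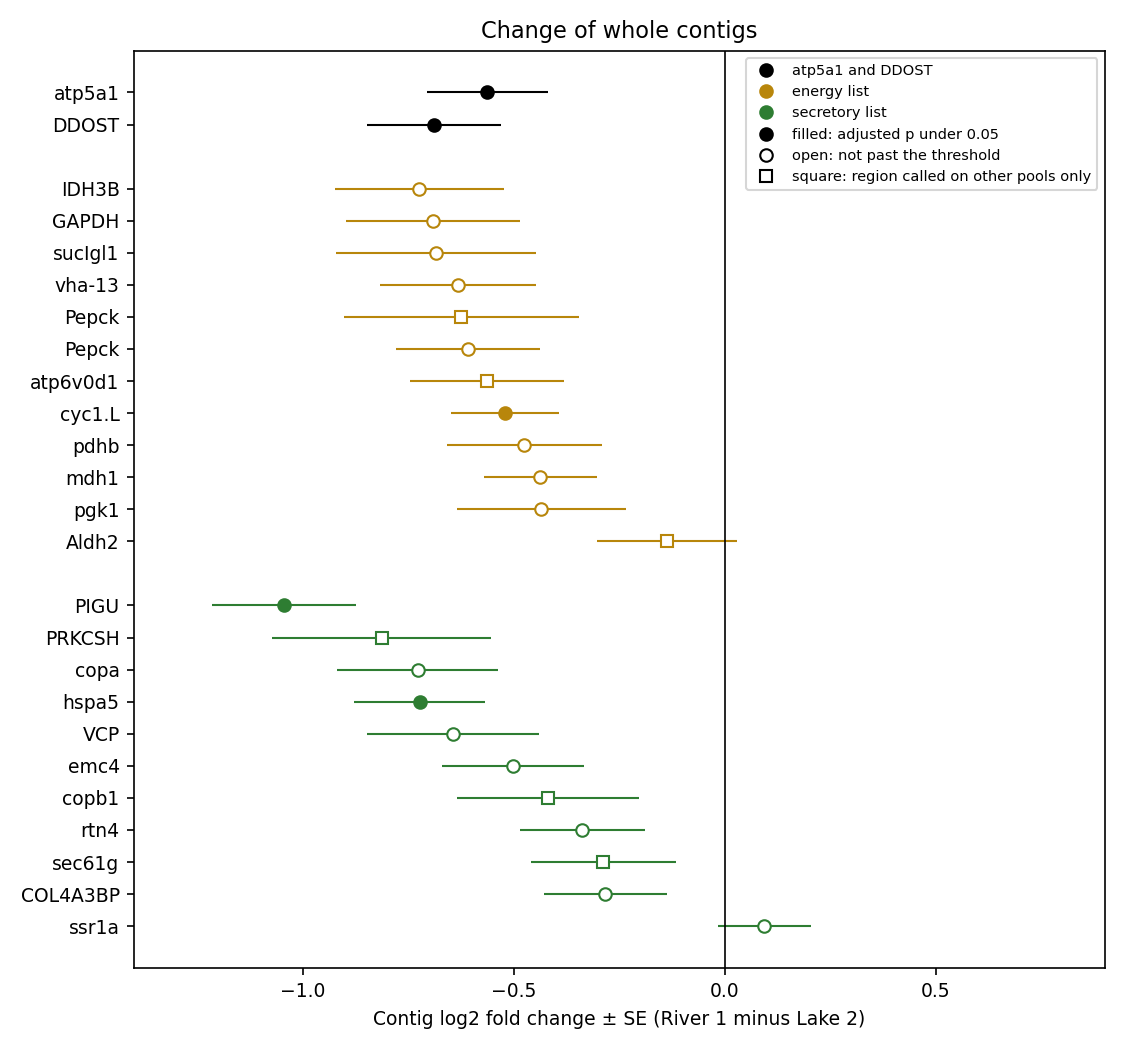
Log2 fold change of whole contigs, River 1 minus Lake 2, with its standard error (horizontal axis) for atp5a1 and DDOST and for each region of the energy and secretory lists (vertical axis). Filled symbols have an adjusted p under 0.05 in the edgeR test across all contigs and squares are regions that the study called on other pools only. All contigs except that of ssr1a lie below 0, from −1.05 for PIGU to −0.14 for Aldh2.

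The direction of these lists is not independent of how the annotation was made. The median contig log2 fold change was −0.59 for the energy list and −0.50 for the secretory list, beside 0.03 over all 36661 tested contigs. Among the 173 gene-named regions that the study called on these pools, with the list regions counted and atp5a1 and DDOST left out, 153 lay on contigs with a log2 fold change below 0, with a median of −0.54. Of these 173, 45 lay on contigs called lower and 4 on contigs called higher, and 124 on contigs with at least 1 window called lower. Among the 130 regions called only on the Lake 1 and River 2 pools, 93 lay on contigs below 0, with a median of −0.28, 2 on contigs called lower and 5 on contigs with a window called lower. The fold change of the atp5a1 contig, −0.56, thus lay near the median of the regions called on these pools. That of the DDOST contig, −0.69, lay below it. Both contigs were called lower, as were those of 45 of the 173 regions.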

How the data were processed

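MeDIP-seq was performed on foot tissue DNA from 6 pools of 10 snails, 3 per site. Per the study's methods, the authors used Bowtie2 for mapping to a P. antipodarum transcriptome, SAMtools for sorting and MEDIPS for counts in 100 bp windows. These counts were deposited without any normalization. A further 6 per-pool columns with RPKM values, the means per site and the authors' edgeR fold changes and p-values were not used.

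The 151608 windows whose counts summed to 10 or more were tested with edgeR 4.0.16 in R 4.3.3 (quasi-likelihood, TMM, no covariate, Benjamini-Hochberg adjustment, threshold 0.05), and counts summed over contigs likewise. Library sizes were the counts in tested windows. The tests were first tested on simulated data. CPM values are counts divided by the TMM-scaled library size. Log2 ratios of spans are differences of mean log2 CPM, and regions of lists used a pseudocount of 1 CPM. Shares and sums were compared by exact two-sided permutation tests. Replicates are pools, and p-values weigh the difference of the groups against the variation between pools within a site. Each group is a single site, so they do not cover variation between sites of a habitat. Reads carry no molecular identifiers.

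Alternatives were DESeq2 1.42.0 (size factors, Wald test), limma 3.58.1 (voom), the edgeR exact test, total count scaling, count minimums of 1 and 50, contig ends at 4 empty windows, borders from the other pools and leaving out each pool. The members and lists were chosen with earlier results of these data known. Windows named are, in each span, that with the most counts and those with an adjusted p under 0.05, and the window with the most counts outside. Other windows, chosen after their values were seen, are the neighbours of called windows and those with a steep or opposite change. Named genes are the members, the lists and the 3 regions most like each member (summed count at least 60).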

Additional observations from a re-analysis of the deposited data

How the results depend on the processing

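The number of windows called in the whole table was 2152, and it was 10 with the Wald test of DESeq2, 1095 with limma-voom, 1298 with the newer quasi-likelihood method of edgeR, 3294 with a count minimum of 1, and between 306 and 5110 when a pool was left out. The newer quasi-likelihood method was added after seeing the data. Called windows on the atp5a1 contig numbered 1, but 0 with the Wald test and 0 to 2 with a pool left out, and those on the DDOST contig 5, but 0 with the Wald test, 4 with limma-voom and 0 to 5 with a pool left out. The contig log2 fold change of atp5a1 no longer passed with DESeq2 size factors (−0.55) or total count scaling (−0.58), and that of DDOST with total count scaling (−0.70). With a pool left out they ranged from −0.66 to −0.50 and from −0.92 to −0.54. Leaving out a pool gave span log2 ratios of −0.76 to −0.57 for atp5a1 and −1.16 to −0.78 for DDOST, and shares that differed by −8.65 to −4.91 and −14.4 to −9.56 percentage points. With the borders from the other pools the atp5a1 contig outside had a log2 ratio of −0.51 and its share differed by −0.65 percentage points. No value changed its direction under any of these alternatives, and causes of these changes were not tested. Other scalings moved the log2 difference of the sites by 0.05 (DESeq2) and −0.02 (total count). No paired analysis was possible because the groups share no replicate numbers.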
